A study of Mus musculus with 8 samples.

Results

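The genes described are 10 interferon-stimulated genes, chosen by name: Ifit1, Ifit2, Ifit3, Isg15, Mx1, Rsad2, Oasl1, Usp18, Ifih1 and Ddx58. They are 10 of 22380 protein-coding genes, and of 37310 genes in all, in the Ensembl release 65 annotation of the mm9 mouse genome. All ChIP-seq libraries came from D1 cells, a splenic dendritic cell (DC) line of C57BL/6 mice that is kept in long-term culture. H3K4me3 was mapped in non-treated cells (NT), after 2 h with curdlan and after 2 h with curdlan and the calcineurin inhibitor FK506. NFATc2 was mapped after 30 min of curdlan, in D1 cells that stably carry NFATc2 with a V5 tag beside their own NFATc2, with an antibody to the tag. Curdlan was given at 10 μg/ml and is a β-glucan that binds the receptor dectin-1. Each of the 4 ChIP experiments had 1 ChIP library and 1 input library, so there was no spread between replicates to test against and no p-value was computed between conditions.

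Interferon-stimulated genes are switched on when type I interferon binds its receptor, and their promoters carry the interferon-stimulated response element. IRF3 and IRF7 can bind such sites directly after a cell senses viral nucleic acid. H3K4me3 is a histone mark found around the transcription start site (TSS) of active and poised genes. Calcineurin removes phosphate from NFAT proteins, which then enter the nucleus and bind sites with the core GGAAAA. FK506 blocks this step.

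The NFATc2 library had 14377535 ChIP tags. The H3K4me3 libraries had 16662316 tags (NT), 21289349 tags (curdlan) and 19468498 tags (curdlan plus FK506). Called peaks held 5.58% of the tags of the NFATc2 library and 51.3% to 57.9% of those of the H3K4me3 libraries. As a check of the labelled cells, 9 of 10 dendritic and myeloid marker genes had an H3K4me3 peak at a TSS in every list, with Flt3 as the exception. Of the markers of other cells, 1 of 4 T cell genes (Lck), 0 of 4 B cell genes, 0 of 2 NK cell genes and 0 of 4 fibroblast genes had one.

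The letters GAAANNGAA, the core of the interferon-stimulated response element, were searched on both strands from 250 bases before to 50 bases after the outermost TSS of each gene. They were found at 7 of the 10 genes (Ifit1, Ifit3, Isg15, Rsad2, Usp18, Ifih1 and Ddx58) and at 8.92% of all protein-coding genes. The stricter letters GAAACNGAA were found at 4 of the 10 (Ifit1, Ifit3, Isg15 and Ifih1) and at 1.98% of all. In a window reaching 1000 bases upstream 9 of the 10 held GAAANNGAA, against 30.4% of all genes, and the exception was Ifit2, while 5 held GAAACNGAA, against 6.84%. The promoters below end at the base before the TSS, are written 5′ to 3′ on the strand of the gene, and show GAAANNGAA in capitals (matches on the other strand appear as the reverse complement). They are shown to place the matches. The genes were chosen as interferon-stimulated genes, whose promoters carry this element, so the raised share is not independent of that choice.
Isg15, chr4:155574928-155575077, minus strand: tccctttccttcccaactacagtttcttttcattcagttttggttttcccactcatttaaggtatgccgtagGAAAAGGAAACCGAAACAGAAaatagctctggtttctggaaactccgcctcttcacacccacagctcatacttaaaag
Ifit1, chr19:34715234-34715360, plus strand: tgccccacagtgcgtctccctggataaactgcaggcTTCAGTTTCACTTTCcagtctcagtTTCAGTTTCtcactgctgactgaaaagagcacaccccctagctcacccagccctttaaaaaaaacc
Ifit3, chr19:34657871-34658020, plus strand: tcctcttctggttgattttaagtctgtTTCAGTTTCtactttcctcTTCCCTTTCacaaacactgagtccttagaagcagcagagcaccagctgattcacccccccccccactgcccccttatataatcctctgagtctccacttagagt
Usp18, chr6:121195774-121195923, plus strand: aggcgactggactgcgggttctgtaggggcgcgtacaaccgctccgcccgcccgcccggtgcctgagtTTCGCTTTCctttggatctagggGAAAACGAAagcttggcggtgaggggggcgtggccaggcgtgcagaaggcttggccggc
Rsad2, chr12:27141318-27141467, minus strand: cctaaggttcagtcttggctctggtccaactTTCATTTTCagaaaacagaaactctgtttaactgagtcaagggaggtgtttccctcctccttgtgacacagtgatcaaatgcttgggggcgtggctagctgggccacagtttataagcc
Ifih1, chr2:62484313-62484462, minus strand: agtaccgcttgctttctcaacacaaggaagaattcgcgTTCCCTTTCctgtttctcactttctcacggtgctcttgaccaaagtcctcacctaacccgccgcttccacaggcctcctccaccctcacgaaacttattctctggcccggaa

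In the Isg15 promoter 3 overlapping copies formed 1 run of capitals, whose first copy began 78 bases before the TSS. Ifit1 held 3 copies, 2 of them overlapping, and Ifit3 held 3, of which the 1 farthest from the TSS lies beyond the bases printed. Usp18 held 1 copy on each strand. Rsad2 held 1 copy, and Ifih1 held a second copy 32 bases after the TSS. The Ddx58 copy began 6 bases after the TSS, so its upstream sequence is not shown. A match of letters does not show that a factor bound there.

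All 10 genes carried H3K4me3 before any stimulation. Each had a peak over the gene or within 1 kb of a TSS in the NT list, as 51.4% of protein-coding genes did, and each kept one with curdlan (51.1% of genes) and with curdlan and FK506 (51.0%). Levels are given as tags in the peaks of a gene per 1000000 ChIP tags of the library (RPM), with a 95% exact Poisson interval that covers counting error only. In NT the lowest of the 10 was Ifit3 at 5.04 (4.02 to 6.24) and the highest was Usp18 at 170 (163 to 176), while the median of all marked protein-coding genes was 47.1. The genes thus spanned nearly the whole range of marked genes, from percentile 3.45 to percentile 97.3.

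Genes were ranked in RPM per kb of peak, since longer peaks collect more tags. The NT order was Usp18 at 22.4, Ddx58 at 16.3, Ifit1 at 16.2, Ifih1 at 14.6, Mx1 at 12.7, Ifit2 at 10.3, Isg15 at 9.63, Oasl1 at 6.24, Rsad2 at 3.95 and Ifit3 at 3.65. The median of all marked genes was 14.1 on this scale. The counting intervals of 4 pairs of neighbours overlapped: Ddx58 with Ifit1, Ifit1 with Ifih1, Ifit2 with Isg15, and Rsad2 with Ifit3. Usp18 was first and Ifit3 last in all 3 conditions.

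**Figure D1:**
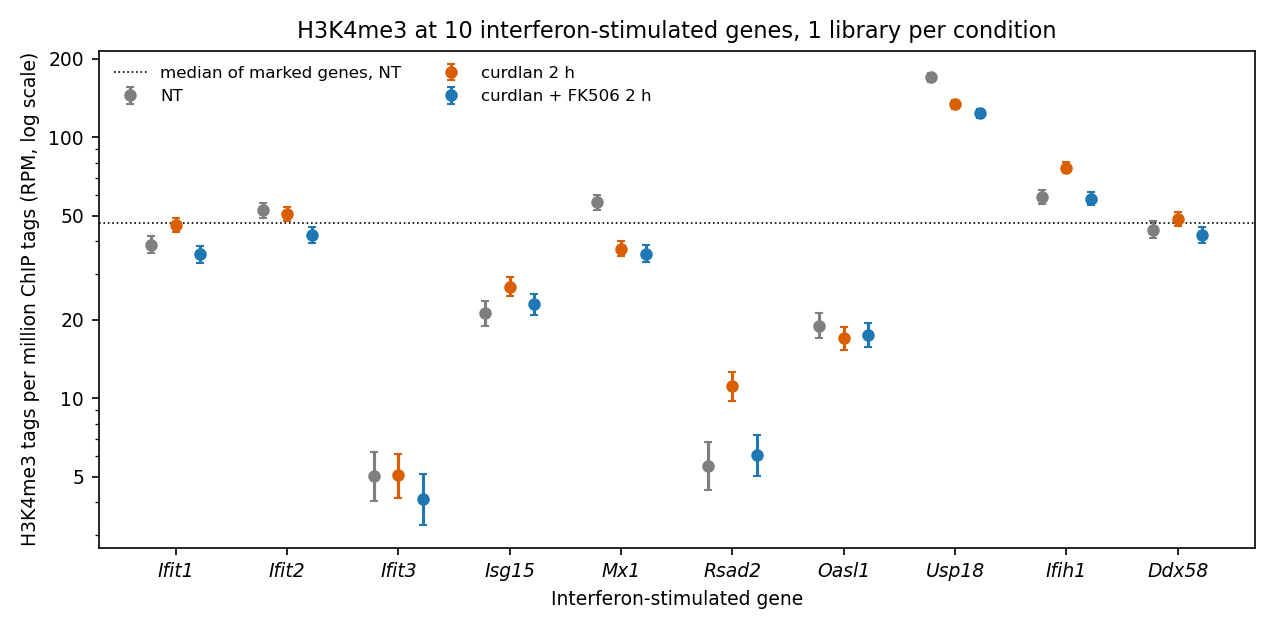
H3K4me3 RPM in the peaks of each gene (log scale) in NT, curdlan and curdlan with FK506, 1 library each, with 95% exact Poisson intervals (counting error only). The dotted line is the median of all marked protein-coding genes in NT (47.1). Rsad2 stands higher with curdlan (11.1) than in NT (5.52) or with FK506 (6.06), and Mx1 is highest in NT (56.3).

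Changes are log2 ratios of RPM, centred by subtracting the median over all protein-coding genes with peaks in both lists. The median subtracted was -0.13 for curdlan over NT, -0.04 for curdlan with FK506 over curdlan and -0.18 for curdlan with FK506 over NT. A gene was called at a centred change of 1.5-fold, the cut-off that the study applied to expression. Intervals are exact 95% intervals of the ratio for counting error. The curdlan library enters both of the first comparisons, so these are not independent.

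Curdlan against NT asks whether 2 h of dectin-1 stimulation changed the mark. With curdlan the genes as a group lay slightly above the median gene: 7 of the 10 were above it and 3 below, with a median log2 change of 0.20. The 10th to 90th percentiles of all 11298 genes ran from -0.29 to 0.33. Only Rsad2 was called higher, 1 of 10 against 3.71% of all genes, and none was called lower, against 1.80%. Among genes with at most 200 tags in NT, the class of Rsad2, 14.7% were called higher.

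With FK506 added to curdlan, which asks what calcineurin inhibition changed, 9 of the 10 lay below the median gene. The median log2 change was -0.20, with percentiles 10 and 90 of all 11277 genes at -0.18 and 0.14. Again Rsad2 was the only call, 1 of 10 lower against 1.35% of all genes, and none was higher, against 0.568%. Among genes with at most 200 tags in the curdlan list, 6.75% were called lower. Rsad2 held 237 tags there, a little above that limit. The interval lay wholly below the median at 5 of the 10 (Ifit1, Ifit2, Rsad2, Ifih1 and Ddx58), as it did at 11.9% of all genes, and wholly above it at none, against 10.7%. In curdlan over NT it lay wholly above at 5 of the 10 (Ifit1, Isg15, Rsad2, Ifih1 and Ddx58), against 25.8% of all genes, and wholly below at 2 (Mx1 and Usp18), against 24.9%.

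**Figure D2:**
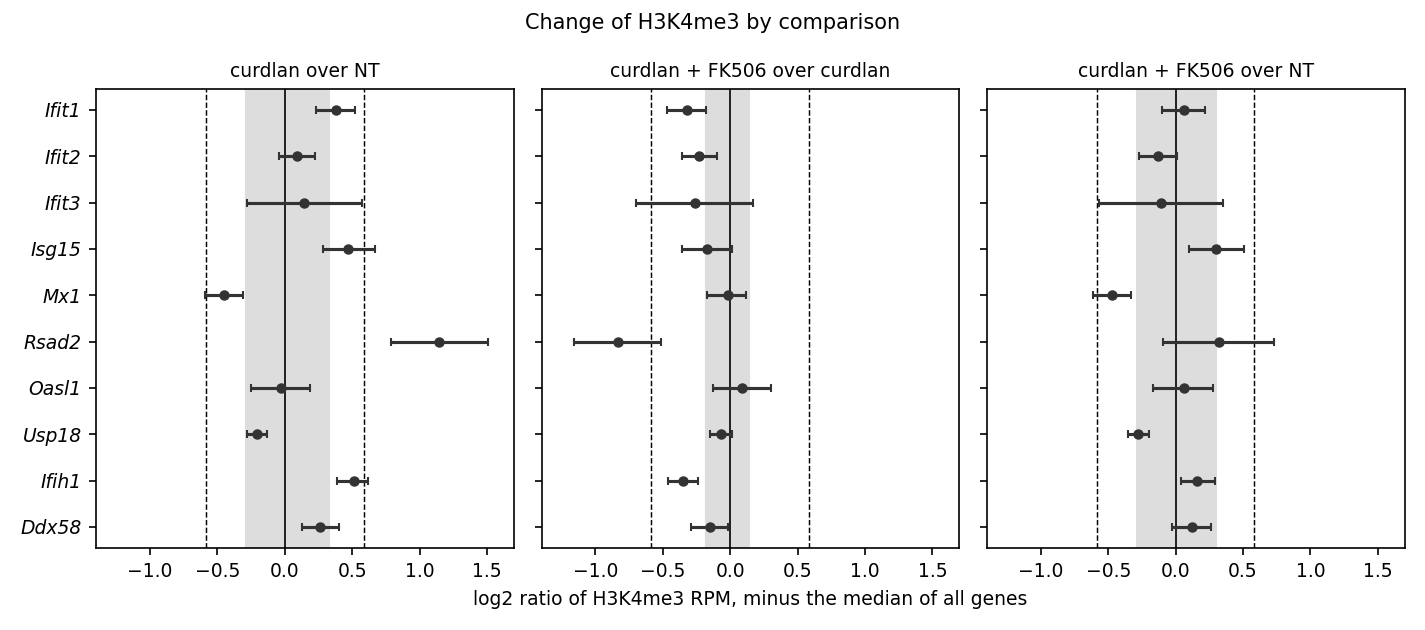
Centred log2 ratio of H3K4me3 RPM for each gene in the 3 comparisons, with 95% exact intervals for counting error. The grey band spans the 10th to 90th percentiles of all genes, the dashed lines mark 1.5-fold, and 0 is the median of all genes. Rsad2 passes a dashed line to the right in curdlan over NT (1.14) and to the left in curdlan with FK506 over curdlan (-0.83).

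These directions depended on the measure. By tags per kb of peak, 5 of the 10 were above the median and 5 below in curdlan over NT, and no gene was called. By the fold enrichment over input that MACS gave the strongest peak, 4 were above and 6 below. For curdlan with FK506 over curdlan, 7 were below by tags per kb and 4 by fold enrichment. Rsad2, Ifih1 and Oasl1 kept their sign in both comparisons under every alternative tried in which they had a value. For Oasl1 that sign was negative in curdlan over NT and positive with FK506 over curdlan, the opposite of the signs of Rsad2 and Ifih1. Of the alternatives, scaling by tags in peaks could not change a centred ratio.

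Rsad2 encodes viperin, a radical SAM enzyme that makes a chain-terminating nucleotide which blocks viral RNA synthesis. Its peak held 92 tags in NT, then 237 after curdlan alone and 118 when FK506 was added, or 5.52, 11.1 and 6.06 RPM. Values of the other genes are given in this order. The curdlan value stood apart, and the intervals of NT (4.45 to 6.77) and of curdlan with FK506 (5.02 to 7.26) overlapped. The centred change was 1.14 (0.79 to 1.51) with curdlan, or 2.21-fold, at percentile 99.1 of all genes. With FK506 over curdlan it was -0.83 (-1.16 to -0.51), at percentile 0.621.

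The Rsad2 peak also became longer. It covered 1397 bp in NT, 2585 bp after curdlan alone and 1785 bp in the FK506 library. With curdlan it reached 1186 bp farther into the gene and 2 bp farther upstream, while with FK506 its edge inside the gene lay 44 bp beyond that of NT. By tags per kb of peak the change was 0.30 with curdlan and -0.33 with FK506 over curdlan, both under 1.5-fold.

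Isg15 encodes a ubiquitin-like protein that is joined to other proteins during an antiviral response. Its peak held 353, 570 and 448 tags, or 21.2, 26.8 and 23.0 RPM. The curdlan value was the highest, and its centred change over NT was 0.47 (0.28 to 0.67). By tags per kb the same change was -0.40 and by fold enrichment -0.42, so the direction turned with the measure.

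The length of the Isg15 peak was 2199 bp in NT, 4153 bp after curdlan alone and 4006 bp in the FK506 library. The peak grew on the downstream side, by 1952 bp with curdlan and 1972 bp with FK506. It then ran through the rest of the gene and past its end, to within 1 kb of a TSS of the neighbouring gene Agrn. In contrast to Rsad2, the longer form was present in both curdlan lists. Isg15 and Rsad2 were the genes whose called peak was longer by 1.5-fold or more in curdlan over NT (1.89-fold and 1.85-fold), 2 of 10 against 3.28% of all genes. No such share was counted among genes with few tags, the class of Rsad2. The curdlan library was deeper than that of NT (21289349 against 16662316 tags), and a part of depth in the called lengths was not tested.

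Usp18 encodes the protease that removes Isg15 from its targets and also damps interferon receptor signalling. It held 2826, 2848 and 2406 tags, or 170, 134 and 124 RPM, the highest level of the 10 in each condition. Its centred change was -0.21 (-0.28 to -0.13) with curdlan and -0.07 (-0.15 to 0.01) with FK506 over curdlan. The fall in its covered length from 7560 bp to 5702 bp came from a second NT peak of 2116 bp with an FDR of 11.2%, which neither curdlan list had. The peak at the TSS was 5444 bp in NT and 5702 bp with curdlan, and by tags per kb the curdlan change was 0.24.

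Ifih1 encodes MDA5, a cytoplasmic sensor of long double-stranded RNA. It held 983, 1629 and 1134 tags, or 59.0, 76.5 and 58.2 RPM, highest in the curdlan library, while the intervals of the other libraries overlapped. The centred change was 0.51 (0.39 to 0.62) with curdlan and -0.35 (-0.46 to -0.24) with FK506 over curdlan, at percentiles 95.3 and 3.58. The peak grew at both ends with curdlan, from 4029 to 4799 bp, by 387 bp upstream and 383 bp downstream. With FK506 it covered 4379 bp.

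Ddx58 encodes RIG-I, which senses short double-stranded RNA with 5′ triphosphates. It held 738, 1033 and 824 tags, or 44.3, 48.5 and 42.3 RPM, and the centred changes were 0.26 (0.13 to 0.40) with curdlan and -0.15 (-0.29 to -0.02) with FK506 over curdlan. Without centring the curdlan change was 0.13, with an interval from -0.01 to 0.27. By fold enrichment both signs turned, to -0.92 with curdlan and 0.90 with FK506 over curdlan, each past 1.5-fold. Oasl1 encodes an inactive relative of the 2′-5′ oligoadenylate synthetases that restrains translation of Irf7. It held 317, 361 and 340 tags, or 19.0, 17.0 and 17.5 RPM, and its changes of -0.03 and 0.09 had intervals on both sides of the median. The Oasl1 peak also lay within 1 kb of a TSS of Gm13822.

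Ifit1, Ifit2 and Ifit3 encode tetratricopeptide proteins, of which Ifit1 binds viral RNA that lacks the methylated cap of host mRNA. They lie within 99.3 kb of each other at chr19:34625184-34724499. Ifit1 held 647, 980 and 694 tags, or 38.8, 46.0 and 35.6 RPM. With curdlan its level was the highest and its peak grew from 2397 to 3319 bp, and with FK506 the peak covered 2278 bp. The centred changes were 0.38 (0.23 to 0.52) and -0.32 (-0.47 to -0.18). Both signs turned with the measure, to -0.04 and 0.19 by tags per kb, and to -0.21 and 1.18 by fold enrichment. The peak also covers the start of 2010002M12Rik, which runs the other way, and the tags of both genes cannot be told apart.

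Ifit2 had 2 H3K4me3 peaks in every list, the first at the annotated TSS and the second starting 18619 to 18803 bp inside the gene. The peak at the TSS held 471, 511 and 462 tags, or 28.3, 24.0 and 23.7 RPM. The inner peak held 403, 575 and 359 tags, or 24.2, 27.0 and 18.4 RPM, highest with curdlan. The TSS peak changed by -0.10 (-0.29 to 0.08) with curdlan and by 0.03 (-0.16 to 0.21) with FK506 over curdlan. The inner peak changed by 0.29 (0.11 to 0.48) and by -0.51 (-0.70 to -0.31). No test between the 2 peaks was possible with 1 library per condition, and the split was made after the peaks had been seen.

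The inner Ifit2 peak covered 1 whole exon, chr19:34644709-34644860, which lies 19525 bp from the first TSS. The annotated promoter of Ifit2 held no GAAANNGAA in 1000 bases, whereas the window from 250 bases before to 50 after the start of this exon held 2 copies, 1 before it and 1 within it. A window of this length around the outermost TSS held a copy at 8.92% of genes, but no share over inner exon starts was counted. Inner exons were searched at Ifit2 only. The stricter GAAACNGAA had 0 matches in the exon's window. The bases just upstream of the exon are shown for comparison with the promoters above, with the upstream copy in capitals.
Ifit2 inner exon, chr19:34644559-34644708, plus strand: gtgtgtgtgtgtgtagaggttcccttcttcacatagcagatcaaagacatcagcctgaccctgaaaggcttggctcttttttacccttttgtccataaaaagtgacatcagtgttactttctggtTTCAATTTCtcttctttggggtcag

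Ifit3 held 84, 108 and 80 tags, or 5.04, 5.07 and 4.11 RPM, with overlapping intervals and changes of 0.14 (-0.28 to 0.57) and -0.26 (-0.70 to 0.17). Only 876 of the 1694 positions in its curdlan peak (51.7%) begin a 50-base sequence found once in the genome, against 95.5% or more at the other 9 genes, so its tag counts are uncertain. I830012O16Rik, which lies between Ifit3 and Ifit1, held 88, 88 and 56 tags, and Gm14446 had no peak.

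Mx1 encodes a GTPase that blocks influenza virus, and most inbred laboratory mouse strains carry a defective allele. It held 938, 799 and 697 tags, or 56.3, 37.5 and 35.8 RPM, so both curdlan libraries lay below NT with no overlap of intervals. The centred change was -0.45 (-0.59 to -0.31) with curdlan and -0.02 (-0.17 to 0.12) with FK506 over curdlan. The peak length was 4448, 4506 and 4707 bp. By fold enrichment over input the sign was the opposite, with values of 18.9 in NT, 61.8 with curdlan and 53.1 with FK506, and the input libraries differed in depth (12085435, 9309800 and 9917958 tags).

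Curdlan with FK506 over NT had a median log2 change of 0.06 for the 10 genes, between -0.47 at Mx1 and 0.32 at Rsad2. None was called in either direction, against 2.98% higher and 1.75% lower among all genes. The interval lay above the median at 2 genes (Isg15 and Ifih1, against 23.8% of all) and below it at 2 (Mx1 and Usp18, against 23.9%). Without centring 2 of the 10 lay above 0 and 8 below, while the median of all genes was itself -0.18.

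**Figure D3:**
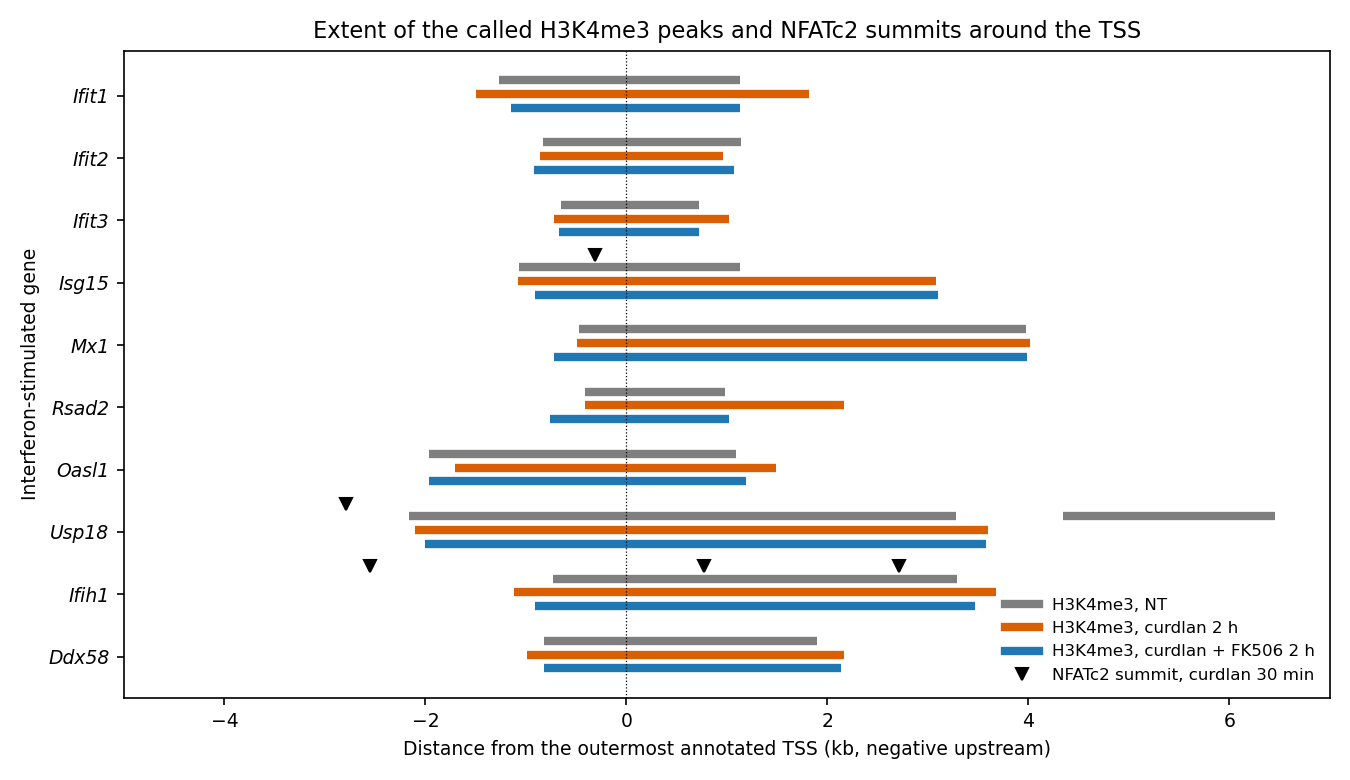
Called H3K4me3 peaks of each gene in NT, curdlan and curdlan with FK506 (bars), and NFATc2 summits after 30 min of curdlan (triangles), by distance in kb from the outermost TSS, with upstream to the left. The inner Ifit2 peak, which starts 18619 to 18803 bp from the TSS, lies beyond the axis. The curdlan bar reaches farther into Rsad2 and Ifit1 than the others, and at Isg15 both curdlan bars reach farther than NT.

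NFATc2 lay within 100 kb of 8 of the 10 genes, as it did of 55.3% of all protein-coding genes. It was mapped with curdlan only, so these lists cannot tell whether curdlan or FK506 changed its binding. There were 21 summits in all, 9 of them with a MACS p of 1e-10 or less, and 6 of the 10 genes had such a summit, against 37.8%. Usp18 had 7, Ifih1 4, Oasl1 3, Isg15 and Ddx58 2 each, Mx1, Ifit1 and Ifit2 1 each, and Rsad2 and Ifit3 none. Thus 2 of the 10 had 4 or more, as did 12.0% of all genes. Within 30 kb 6 of the 10 had a summit (30.2% of all genes), within 10 kb 4 (Isg15, Mx1, Usp18 and Ifih1, against 16.3%) and within 1 kb 2 (Isg15 and Ifih1, against 5.29%). These shares are of all protein-coding genes, of which 51.4% had an H3K4me3 peak in NT, while all 10 genes had one.

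Rsad2, the gene with the only call in H3K4me3, had no NFATc2 summit nearer than 719 kb. The 3 Ifit genes lay in a gap of 260 kb without a summit, between chr19:34539042 and chr19:34799277. At its left edge was a summit of 270 tags, 10583 bp from the TSS of Ch25h (cholesterol 25-hydroxylase) and 86.1 kb upstream of Ifit2, at percentile 97.3 of tags in the NFATc2 list. At its right edge was a summit of 95 tags in an intron of Slc16a12.

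Ifih1 had 3 summits within 10 kb, which 0.934% of all genes had. Of these, 1 was 2550 bp upstream with 60 tags (fold enrichment 27.2, p 1.5e-22), and 1 was in an intron, 2673 bp downstream of the nearest TSS, with 67 tags (fold enrichment 25.1, p 1.1e-19). The third lay in an exon, 730 bp downstream of the nearest TSS, with 46 tags and a p of 2.1e-09. The summits downstream of the TSS were inside the H3K4me3 peak of the gene in all 3 lists and the upstream one was outside it. A further summit of 58 tags lay 71.0 kb away, near Fap.

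At Isg15 a summit lay 308 bp upstream of the TSS and inside its H3K4me3 peak. It was weak, with 35 tags, at percentile 17.1 of the list, and with fold enrichment 7.81, p 6.5e-06 and FDR 3.07%. Only Isg15 and Ifih1 of the 10 had a summit inside their own H3K4me3 peak, 2 of 10 against 15.3% of marked genes in NT and 15.6% with curdlan.

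The sequences at these summits are shown as 101 bases of the plus strand centred on the summit, with GGAAAA, the NFAT core, in capitals (TTTTCC on the other strand). They are the summits nearest to a TSS among the 10 genes.
Isg15, 308 bp upstream, chr4:155575185-155575285: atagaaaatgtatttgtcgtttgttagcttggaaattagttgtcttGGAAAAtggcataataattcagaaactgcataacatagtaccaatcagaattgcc
Ifih1, 2550 bp upstream, chr2:62486812-62486912: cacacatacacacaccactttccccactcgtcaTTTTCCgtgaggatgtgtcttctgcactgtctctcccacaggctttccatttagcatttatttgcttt
Ifih1, 730 bp downstream, chr2:62483488-62483588: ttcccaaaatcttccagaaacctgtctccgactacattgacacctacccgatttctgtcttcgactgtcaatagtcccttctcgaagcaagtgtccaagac
Ifih1, 2673 bp downstream, chr2:62481545-62481645: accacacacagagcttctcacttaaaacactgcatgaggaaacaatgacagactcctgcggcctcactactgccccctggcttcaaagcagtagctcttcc

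The core lay 2 bp from the Isg15 summit and 15 bp from the upstream Ifih1 summit. At the exonic Ifih1 summit the nearest core was 80 bp away, beyond the bases shown, and at the intronic one there was none within 100 bp. Over all 21 summits 10 had GGAAAA within 100 bp, against 45.6% of the 9438 summits in the NFATc2 list, and 5 had GAAANNGAA, against 12.8%. The letters of GGAAAA and GAAANNGAA can overlap. In the promoters, from 250 bases before to 50 after the TSS, GGAAAA was found at 3 of the 10 genes (Isg15, Usp18 and Ifit3), against 23.6% of all genes, and in the window reaching 1000 bases upstream at 6, against 65.7%.

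**Figure D4:**
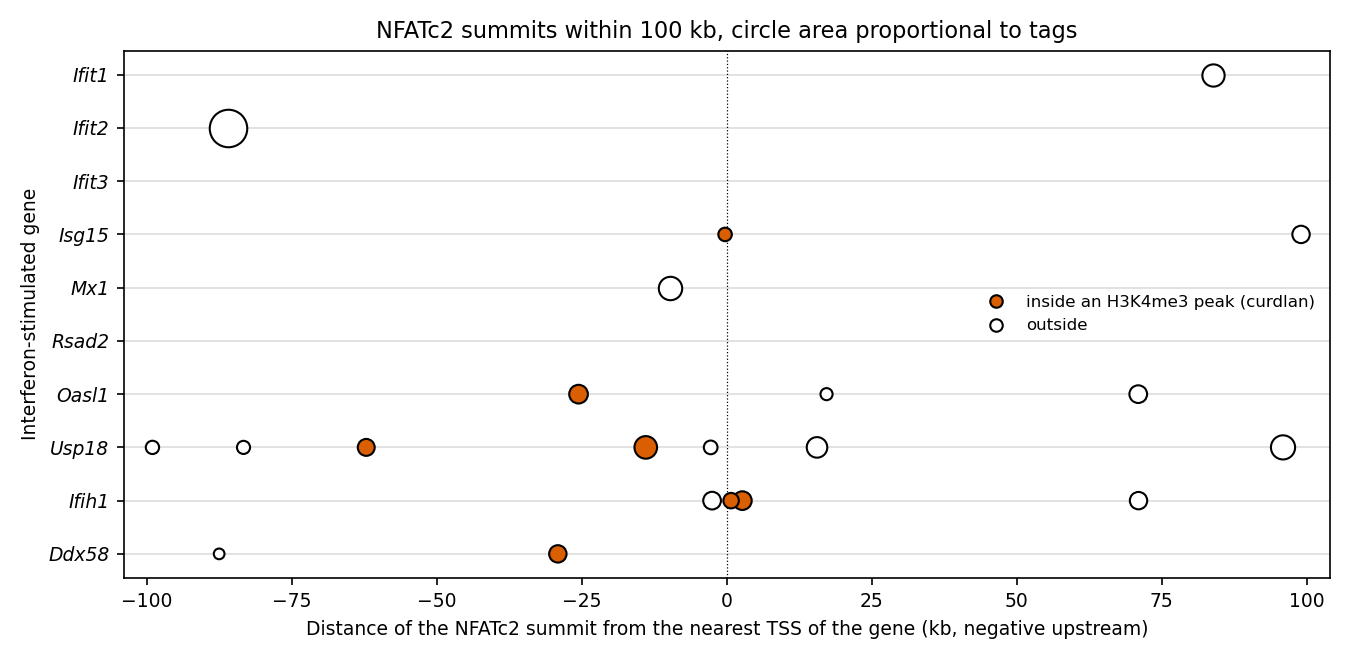
NFATc2 summits within 100 kb of each gene after 30 min of curdlan, by distance in kb from the nearest TSS of the gene (upstream to the left), with circle area proportional to the tags of the peak. Filled circles lie inside an H3K4me3 peak of the curdlan list, of any gene. Ifih1 has 3 summits close to its TSS, and the rows of Rsad2 and Ifit3 are empty.

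Several of the other summits were closer to a neighbour than to the interferon-stimulated gene. The only summit of Mx1, 9783 bp upstream with 105 tags, was in an intron of Fam3b. The nearest upstream summit of Oasl1, with 67 tags, was in an exon of its paralog Oasl2, 78 bp from a TSS of that gene. The summit of Ddx58 with 58 tags was in an intron of Topors, 867 bp from its TSS. At Usp18, 3 of the 7 summits had Usp18 as the nearest gene: at 14.0 kb upstream with 98 tags, 2793 bp upstream with 36 tags, and 15.6 kb downstream in an exon with 81 tags.

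A wider list of 62 interferon response genes was set beside the 10, grouped as sensors and signalling genes, antiviral effectors, GTPases, genes of ISG15 conjugation, PARP genes and others. Of these, 57 had H3K4me3 peaks in every list, against 51.0% to 51.4% of all protein-coding genes in any 1 list. Some of the 57 shared their peaks with another of them and were counted apart. The 5 without a peak in any list were Ifi204, Tyk2, Ifnb1, Ifi44 and Cxcl10. The nearest NT peak lay 1.01 kb from Tyk2, just outside the window, 3.93 kb from Cxcl10, a chemokine gene, and 14.1 kb from Ifnb1, the interferon β gene itself.

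In curdlan over NT the median log2 change of the 57 was 0.01, with 31 above and 26 below the median of all genes. Of the 57, 1 was called higher, against 3.71% of all genes, and 0 lower, against 1.80%. The 1 called was Ifitm2, an antiviral effector that blocks virus entry, whose peaks held 37 tags in NT, 434 after curdlan and 325 when FK506 was added. Its change was 3.33 (2.85 to 3.86) with curdlan and -0.24 (-0.46 to -0.03) with FK506 over curdlan, and its level with FK506 stayed above that of NT. The peaks covered 899 bp in NT, 3972 bp after curdlan and 3653 bp with FK506, so the tags were summed over unlike lengths. By tags per kb of peak 1 of the 57 was called higher in curdlan over NT. The NT count of Ifitm2 puts it in the class with at most 200 tags, where 14.7% of genes were called higher. With FK506 over curdlan 0 of the 57 were called in either direction, against 0.568% higher and 1.35% lower among all genes. The median was -0.11, and 15 were above and 42 below.

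An NFATc2 summit lay within 100 kb of 55 of the 62 (55.3% of all genes) and within 10 kb of 20 (16.3%). These shares are of all protein-coding genes, with or without H3K4me3, and no share among marked genes was counted. Genes of the list that lie close together can count the same summits. GAAANNGAA was found in the window around the TSS of 22 of the 62, or 35.5%, against 8.92% of all genes. The share of the 10 genes with these letters was higher, 7 of 10, and the lists share no gene.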

How the data were processed

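D1 cells, conditions and libraries are as given above, and groups were taken from the sample labels. According to the study's methods, the authors aligned reads to mm9 with bowtie at default parameters. In the file headers the ChIP tags after filtering equal the total in every list. This does not show whether duplicate tags were absent or were kept. The headers name MACS 1.4.2 at p 1e-05 (the methods name another MACS version). MACS called the peaks of each ChIP library separately against its input. The band width was 300 bp in the NFATc2 list and 1000 bp in the H3K4me3 lists. The deposited lists give the count of tags per peak, which the authors did not normalize. The authors' p-value of each peak is deposited as −log10 p multiplied by 10. The fold enrichment deposited by the authors is the value that MACS gave each peak against its local background, a measure other than the summed tags. The FDR deposited by the authors is in percent, which MACS derived by swapping ChIP and input. The study calls the NFATc2 reads uniquely mapped. For H3K4me3 only the default parameters are stated, so genes with near-identical copies are uncertain.

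Genes and TSSs came from Ensembl release 65 (GENCODE vM1) on NCBI mouse build 37, the assembly of the files. The TSS of every transcript was used. A gene was given the H3K4me3 peaks that overlap it or lie within 1 kb of a TSS, and NFATc2 summits within 100 kb of a TSS. Tags were summed, divided by the ChIP tags of the header and compared as centred log2 ratios. Intervals are exact 95% Poisson or conditional binomial intervals and cover counting error only. The script was tested on simulated peak lists. Sequences were read from the mm9 genome. No column of the tables was left unused for want of a sample (0 columns). The scripts used scipy 1.17.1, pandas 2.3.3, numpy 2.4.6 and matplotlib 3.10.9 under Python 3.11.15.

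The 10 genes, the wider list of 62 and the marker lists were chosen with earlier results of these data known. The genes named were all 10, those of the wider list past 1.5-fold or without a peak, and neighbours that share a peak or hold a summit. The comparison of the Ifit2 peaks apart, the search around the inner Ifit2 exon, the background of genes with at most 200 tags, the counts by interval and the RefSeq promoters were added after the data had been seen. Alternatives changed the scale, centring, measure, peaks used, thresholds, windows and motif. The dose of FK506 is not stated for these libraries.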

Additional observations from a re-analysis of the deposited data

How the results depend on the processing

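With 1 library per condition, depth limits precision most at genes with few tags (Ifit3 and Rsad2), and the spread between cultures is unknown. No paired analysis was possible because no condition had a second library. Rsad2, the only one of the 10 genes called, kept its direction in curdlan over NT and in curdlan with FK506 over curdlan under every alternative run, whereas Mx1 in curdlan with FK506 over NT was -0.65 without centring and 1.04 by fold enrichment. Of the 10 genes in curdlan over NT, 0 were called higher by tags per kb of peak. By fold enrichment 2 were higher and 3 lower. In curdlan with FK506 over curdlan, 0 were called lower by tags per kb, by fold enrichment or at 2-fold, and 3 were higher by fold enrichment. In curdlan with FK506 over NT, 1 was lower without centring, and by fold enrichment 3 were higher and 1 lower. In the wider list, curdlan over NT gave 1 lower without centring, 9 higher and 6 lower by fold enrichment, and 0 higher with peaks of p 1e-10 or less or of FDR 5% or less, since Ifitm2 then had no NT peak. Curdlan with FK506 over curdlan gave 6 higher and 15 lower by fold enrichment. Curdlan with FK506 over NT gave 4 lower without centring, 5 higher and 14 lower by fold enrichment, and 0 higher at either stricter limit. Within 10 kb, 4 of the 10 genes had an NFATc2 summit, and with the stricter motif 4 had a match. The cause of the differences by fold enrichment was not tested. No share of all genes is given for H3K4me3 calls under these alternatives, so the counts cannot be set against it. In the RefSeq promoters of GRCm38, 8 of the 10 genes were matched and 6 of these held GAAANNGAA, against 9.76% of 27025 genes. The other 88 summary values stayed within 1.5 times of the reported ones. Of the changes at single genes 163 moved by less than their counting interval and 45 by more, 24 of them by fold enrichment. Scaling by tags in peaks cancels on centring, so it could not move any H3K4me3 change. Its values are counted among the 88 and the 163, which therefore overstate how much was tried.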
